A study of Oryza sativa Japonica Group with 9 samples.

Results

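The 285 loci described here are transcribed regions of the rice genome to which the deposited tables give a running number in place of an annotated locus or non-coding RNA identifier, and no Pfam protein domain. They were chosen by their level, a mean of at least 100 normalised reads over the 3 libraries of at least 1 group. Of 35902 genes in either table, 1977 were such unannotated loci, 1386 of these had no Pfam domain, and 285 reached the level. All 285 were listed in both tables, and 0 of them had a gene symbol or a biotype. Each is called UL (unannotated locus) with its rank in mean level over the 9 libraries, so that UL1 is the highest, and is identified by its coordinates. Since the loci were selected on level, one that reached 100 in only 1 group had to differ from the others, and such differences are given without a test.

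Roots of Oryza sativa Japonica, cultivar Nipponbare, were compared between control nutrients (labelled CK), N deficiency and P deficiency, with 3 libraries in each of 3 groups that the design text calls biological replicates. RNA libraries were made with a TruSeq RNA kit from total RNA, and both deficiencies were set against the same 3 control libraries. The age of the plants, the length of treatment and the number of plants in a sample were not given in the sources used here. Coordinates are those of the deposited tables, and the genome build behind them was not given either. A library held between 17931041 and 22752492 reads assigned to genes. Levels below are normalised reads per library, put on 1 scale over the 9 libraries, except where a mean is set against the threshold of 100, which was read on the scale of each deposited table. Group values are means ± SD (n = 3), and fold changes are log2 differences ± SE of value + 1, a scale on which changes of low loci are understated.

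As background, an assembler that joins RNA sequencing reads into transcripts reports an unannotated locus where no gene of the annotation used covers it. Such loci can be long non-coding RNAs, unannotated ends of known genes, transcribed transposon remnants or coding genes that an annotation lacks, and the absence of a protein domain does not tell these apart. Plant roots are known to make non-coding RNAs that respond to nutrient supply. The best known, IPS1 of Arabidopsis, is made under phosphate shortage and pairs with a microRNA that would otherwise lower an enzyme of phosphate transport control. The deposited tables give no name or function for any locus described here, and none is assigned.

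The libraries carried root transcripts. Lsi1 and Lsi2, the silicon transporters of the rice root, stood between 21150.5 and 37848 and between 24136 and 42504 normalised reads over the 9 libraries. RCc3, also read as a root marker, stood between 56075 and 61027 in control and between 44082 and 74645 under N deficiency. In P deficiency libraries 1, 2 and 3 it stood at 94680, 84605 and 37649. NAR2.1, a partner protein of high-affinity nitrate transporters, stood between 1927 and 2505 in control, between 21350.3 and 31610 under N deficiency and between 614 and 1166 under P deficiency. A list of 26 green-tissue genes (chlorophyll-binding proteins and the small chain of ribulose bisphosphate carboxylase) summed to 23754 to 64222 in control, 7267 to 10329 under N deficiency and 18355 to 26313 under P deficiency. Of these 26 genes, 19 fell and 0 rose under N deficiency, and 1 fell and 0 rose under P deficiency (limma, Benjamini-Hochberg). In N against P deficiency, 8 were lower and 0 higher under N deficiency. The part of green-tissue transcripts in the results below was not tested. Along the third principal component of all genes, which held 18.0% of the variance, P deficiency library 3 stood at 81.3 and the other 8 libraries between -34.4 and 18.4. In bulk roots, fewer cells of a type and less RNA per cell cannot be told apart.

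The 285 loci were on all 12 chromosomes, from 40 on chromosome 1 to 14 on chromosome 12. They made up from 0.987% (chromosome 3) to 2.36% (chromosome 11) of the genes that reached the same level. Their exonic length ran from 274 bases (UL126 (chromosome 12, 21669174 to 21669447)) to 7205 bases, with a median of 1620 bases. The plus strand held 139 and the minus strand 146. In 118 of the 285 (41.4%) the genomic span equalled the exonic length, so the model had no intron. The share of models without an intron was 25.5% of 184 unannotated loci with a Pfam domain at the same level, 27.6% of 5353 listed genes without a domain and 13.9% of 12844 listed genes with one. These shares describe the assembly and annotation as deposited and were not tested.

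The highest group mean had a median of 213 normalised reads, 131 loci stayed under 200, and 20 reached 1000. Per kilobase of exon, the mean level over the 9 libraries ran from 10.5 to 12322 with a median of 113, against a median of 94.2 in unannotated loci with a Pfam domain, 274 in listed genes without a domain and 310 in listed genes with one. Just inside the rule, UL265 (chromosome 9, 10473251 to 10476838) reached 100.3 in control, UL274 (chromosome 8, 21093643 to 21097694) reached 100.3 in control and UL282 (chromosome 2, 8683002 to 8690580) reached 100.5 under N deficiency. The control values of UL265 and UL274 are those of the N table, and in the P table, scaled separately, the same control libraries averaged 95.6 and 95.7. Of the 285 loci, 7 reached 100 by the control mean of 1 table alone. Just outside it, the locus at chromosome 11, 17072932 to 17075473, reached 99.8 under N deficiency, the locus at chromosome 1, 10987367 to 10989174, reached 99.5 under P deficiency and the locus at chromosome 1, 781173 to 785787, reached 98.7 in control. With control counted by either table, 196 of the 285 loci were at 100 or above in all 3 groups, 37 in 2 groups, 32 only in control, 9 only under N deficiency and 11 only under P deficiency.

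The loci together took a small share of each library. In control this share was 0.495%, 0.489% and 0.478% of reads. It was 0.452%, 0.459% and 0.447% under N deficiency and 0.520%, 0.543% and 0.538% under P deficiency. One locus, UL1 (chromosome 3, 2607729 to 2609646), held 15.6%, 12.9% and 17.0% of the members' reads in the 3 P deficiency libraries. Without it the P deficiency shares were 0.438%, 0.473% and 0.447%, so the P deficiency libraries were above control with UL1 counted and below control without it. The loci were chosen by group levels, with 32 in through control only, 9 through N deficiency only and 11 through P deficiency only. The order of the groups in these shares can thus follow in part from the rule, and it was not tested.

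UL1 lies on the plus strand of chromosome 3 from 2607729 to 2609646, a model of 1918 bases with no intron. In control it stood at 22.5, 32.1 and 21.7 normalised reads. Under N deficiency it stood at 0.926, 3.96 and 0.951. Under P deficiency it stood at 17785, 15310.2 and 18367. The 3 groups did not overlap: every P deficiency library was far above control, and every N deficiency library was below it. Over each group's reads, P deficiency (49373 reads) was 671 times control (78 reads), with a 95% interval from 538 to 849. Control was 13.4 times N deficiency (6 reads), with an interval from 5.88 to 37.6. Both intervals cover counting error only.

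The fitted log2 differences of UL1 were 9.36 ± 0.165 under P deficiency and -3.31 ± 0.470 under N deficiency, and no test is given because control and N deficiency lay below 100. Its level under P deficiency was the highest group mean of the 285 loci. Its nearest gene model in the deposited tables is Os03g0146900, 64 bases away on the opposite strand. The P table lists this gene at a mean of 1.16. The level of UL1 was thus read beside a neighbour near 1 normalised read.

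**Figure D1:**
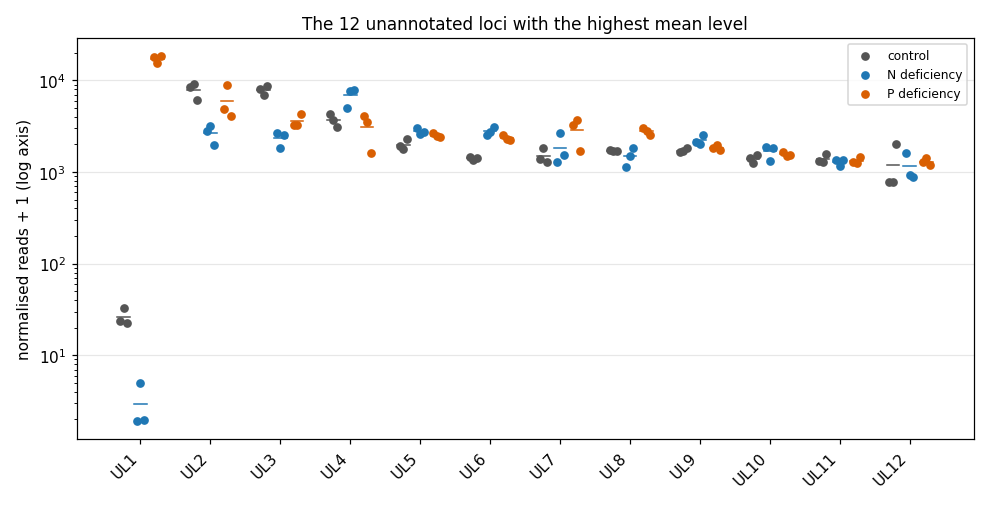
Normalised reads + 1 (log axis) of the 12 loci with the highest mean over the 9 libraries, with a point per library coloured by group and a bar at each group mean. UL1 spans from 0.926 to 18367 between libraries, while the other 11 stay between 768 and 9039.5 in every library.

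After UL1, the highest loci were UL2 and UL3. UL3 (chromosome 12, 1772379 to 1774746, minus strand, 2251 exonic bases) stood at 8067, 6829 and 8661 in control. It stood at 2638, 1839.8 and 2505 under N deficiency and at 3215, 3232 and 4273 under P deficiency. Each deficiency lay below every control library. It fell by 1.76 ± 0.158 under N deficiency (limma, adjusted p = 0.00038) and by 1.14 ± 0.154 under P deficiency (limma, adjusted p = 0.0069).

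UL2 (chromosome 10, 16607720 to 16626558, minus strand) spans 18839 bases for 1460 exonic bases. It stood at 8435, 9039.5 and 6068 in control, at 2788, 3175 and 1957 under N deficiency, and at 4914, 8927 and 4054 under P deficiency. The N deficiency libraries lay below all control libraries, and the P deficiency libraries overlapped control. It fell by 1.58 ± 0.207 under N deficiency (limma, adjusted p = 0.0019), and under P deficiency the difference was -0.46 ± 0.296 (adjusted p = 0.42).

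UL4 (chromosome 4, 23835898 to 23836265, plus strand, 368 bases) had the highest level per kilobase. It stood at 4245, 3731 and 3079.5 in control, 4989, 7736 and 7786 under N deficiency, and 4107, 3534 and 1604 under P deficiency. It rose by 0.88 ± 0.194 under N deficiency (limma, adjusted p = 0.020). That call was lost, with an adjusted p of up to 0.12, in the fit over 9 libraries and without any one of N deficiency libraries 2 and 3 or control libraries 2 and 3.

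UL6 (chromosome 8, 17605861 to 17606881, minus strand, 1021 bases without an intron) stood at 1442, 1342 and 1425 in control, 2548, 2716 and 3092 under N deficiency, and 2519, 2282 and 2251 under P deficiency. Both deficiencies lay above every control library. It rose by 0.99 ± 0.101 under N deficiency (limma, adjusted p = 0.00066) and by 0.74 ± 0.0911 under P deficiency (limma, adjusted p = 0.0048).

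UL8 (chromosome 12, 22457301 to 22458255, minus strand, 955 bases) was at 1738, 1704 and 1689 in control, at 1142, 1488 and 1825 under N deficiency, and at 3027, 2776 and 2545 under P deficiency. It rose by 0.70 ± 0.0964 under P deficiency (limma, adjusted p = 0.0075). N deficiency lay below P deficiency, with a log2 difference of -0.93 ± 0.152 (limma over 9 libraries, adjusted p = 0.0077). Both of these calls passed in every alternative fit.

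Of the remaining 6 of the 12 highest loci, 1 passed a test. UL5 (chromosome 10, 15827939 to 15828913) rose by 0.50 ± 0.116 under N deficiency (limma, adjusted p = 0.025), a call lost (adjusted p up to 0.10) without any one of N deficiency libraries 1 and 3 or control libraries 1 and 2. UL9 (chromosome 5, 20246296 to 20247667), UL10 (chromosome 8, 11688720 to 11692318), UL11 (chromosome 8, 5690085 to 5691119), UL7 (chromosome 2, 26336492 to 26338040) and UL12 (chromosome 4, 6011525 to 6012585) did not pass the test in any comparison. UL11 had means of 1380.3 ± 159 in control, 1275 ± 109.7 under N and 1333 ± 115 under P deficiency. Single libraries stood apart in UL12 and UL7. Control library 3 of UL12 was at 2018 against 772 and 768, and P deficiency library 3 of UL7 was at 1685 against 3259.9 and 3669. A lower-level locus, UL21 (chromosome 1, 13452938 to 13458183, 2619 exonic bases), stood between 727 and 880.0 in all 9 libraries and had differences of -0.03 ± 0.0861 and -0.03 ± 0.0993 from control under N and P deficiency. It was chosen after its values were seen.

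All 285 loci passed the filter on low values in each comparison. A test result is given for a locus only where both groups compared had a mean of at least 100, so that the rule alone could not produce the difference. In N deficiency against control, 209 loci met this, and 36 of them (17.2%) passed the test: 20 rose and 16 fell. Over all 32680 genes tested 12.8% passed (6.9% higher, 5.94% lower). Among the 17042 genes at 100 or above in both groups 16.0% passed (9.24% higher, 6.72% lower), so the share of these loci was near the background of genes at their level. The median log2 difference of the 209 was -0.04, against -0.01 over all genes tested. Without 1 library the number of loci passing was 18 without N deficiency library 3, 18 without control library 1, 17 without control library 2, and between 24 and 32 without each of the others. In the same comparison, loci below 100 in a group were also looked at for overlap of libraries. In 50 of the 285 every N deficiency library was above every control library, against 15.8% of all genes tested. In 66 every one was below, against 15.0%. These counts include loci that reached 100 in 1 group only, 32 in control and 9 under N deficiency, which the rule itself could set apart. They were not tested.

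Among the loci that rose under N deficiency, UL66 had the largest difference. It spans 18004 bases of chromosome 10 (11353919 to 11371922, minus strand) for 1173 exonic bases. Control libraries were at 137, 164 and 185, N deficiency libraries at 940.1, 448 and 628, and P deficiency libraries at 282, 292 and 261. The 3 groups did not overlap. It rose by 1.99 ± 0.249 under N deficiency (limma, adjusted p = 0.0016) and was higher under N than under P deficiency by 1.20 ± 0.231 (limma, adjusted p = 0.018). The latter call was lost (adjusted p up to 0.070) without any one of N deficiency library 3 or P deficiency libraries 1 and 2. Its rise under P deficiency was 0.79 ± 0.142 (limma, adjusted p = 0.021), and that call was lost (adjusted p up to 0.086) in the fit over 9 libraries and without any one of P deficiency libraries 1 and 2 or control libraries 1 and 2.

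UL48 (chromosome 6, 22983302 to 22984740, minus strand) stood at 252, 308 and 325 in control and at 791, 556 and 635 under N deficiency, a rise of 1.16 ± 0.157 (limma, adjusted p = 0.0023). Under P deficiency it stood at 425, 363 and 379. UL108 (chromosome 1, 21407672 to 21409320) rose by 1.53 ± 0.354 under N deficiency (limma, adjusted p = 0.024), from 93.3, 60.5 and 185 in control to 323, 327 and 244. That call was lost (adjusted p up to 0.083) without any one of the N deficiency libraries or control libraries 1 and 2.

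The lowest fitted difference among the loci that passed under N deficiency was that of UL36 (chromosome 2, 10343776 to 10347620), at -1.88 ± 0.510 (limma, adjusted p = 0.046). Its N deficiency libraries were at 171, 535 and 98.9 against 914, 771 and 651 in control, and library 2 stood apart. The call was lost in 10 of 14 alternatives, among them each fit that left out control library 1, 2 or 3 or N deficiency library 1 or 3. UL3 and UL2, described above, and UL80 and UL51, followed in size.

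**Figure D2:**
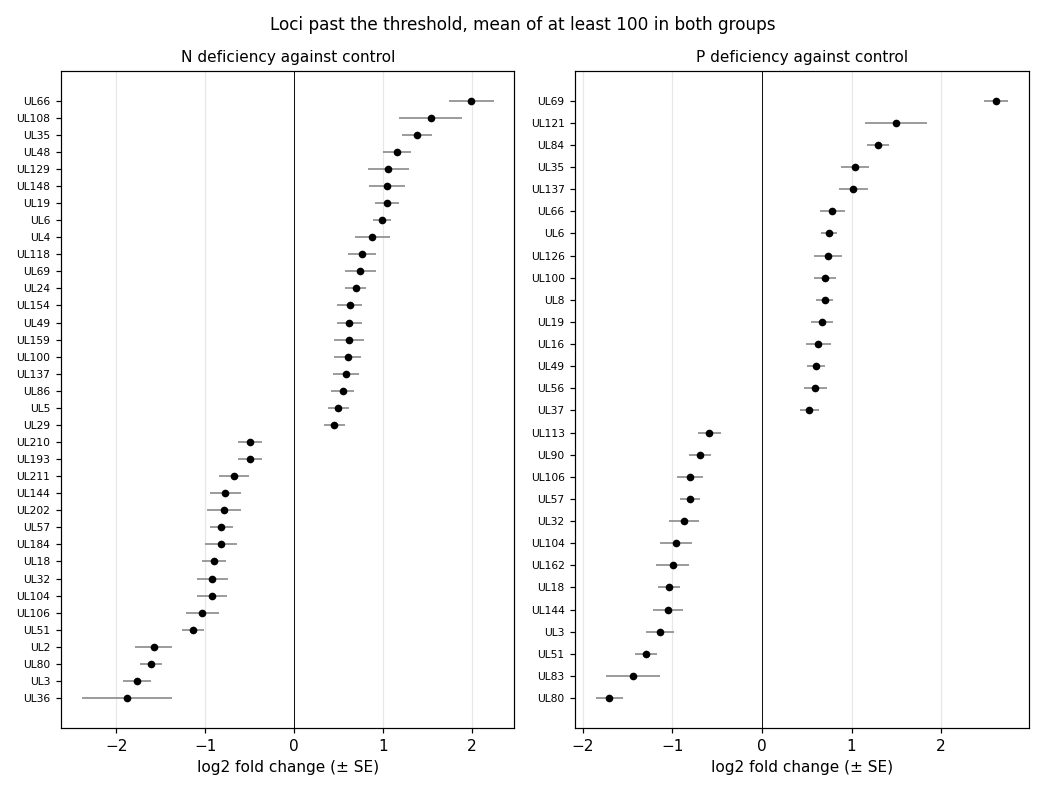
Log2 fold changes (x axis, points) with SE (bars) of the loci that passed the test at a mean of at least 100 in both groups, 36 in the comparison of N deficiency with control (left) and 28 in that of P deficiency with control (right). The 20 rises and 16 falls under N deficiency run from -1.88 to 1.99, and the 15 rises and 13 falls under P deficiency run from -1.71 to 2.61.

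In P deficiency against control, 205 loci had a mean of at least 100 in both groups and 28 of them (13.7%) passed the test: 15 rose and 13 fell. Over all 32576 genes tested 6.28% passed (3.58% higher, 2.7% lower). Among the 16969 genes at 100 or above in both groups 8.28% passed (4.84% higher, 3.44% lower). The median log2 difference of the 205 was -0.03, against 0.00 over all genes. The number of loci passing was 10 without P deficiency library 1, 15 without P deficiency library 2, 34 without P deficiency library 3, and 10, 12 and 18 without control libraries 1, 2 and 3. With loci below 100 in a group included, 52 of the 285 had every P deficiency library above every control library, against 13.3% of all genes tested. In 67 every one was below, against 14.5%. These counts include loci that reached 100 in 1 group only, 32 in control and 11 under P deficiency, which the rule itself could set apart. They were not tested.

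The largest rise under P deficiency among the tested loci was that of UL69. This locus on chromosome 1 (10261511 to 10264580, minus strand, 1864 exonic bases) stood at 92.2, 108 and 127 in control, 210.2, 154 and 184 under N deficiency, and 664, 664 and 663 under P deficiency. The 3 groups did not overlap. The P deficiency libraries stood at 663 ± 0.407, closer together than counting error at this level would give. This SD is therefore not read as the spread of the locus. UL69 rose by 2.61 ± 0.136 under P deficiency (limma, adjusted p = 8.4e-05). N deficiency lay below P deficiency, with a log2 difference of -1.87 ± 0.150 (limma, adjusted p = 6.8e-05). Both calls passed in every alternative fit. The smaller rise under N deficiency, 0.74 ± 0.179 (limma, adjusted p = 0.028), was lost (adjusted p up to 0.10) without any one of N deficiency libraries 1 and 3 or control libraries 1 and 2.

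UL84 (chromosome 12, 11042436 to 11043905, plus strand, 1470 bases) stood at 192, 171 and 155 in control and at 408, 442 and 424 under P deficiency, a rise of 1.30 ± 0.122 (limma, adjusted p = 0.0016). Its N deficiency libraries, at 155, 282 and 263, overlapped control. UL121 (chromosome 4, 1586757 to 1587338) rose by 1.49 ± 0.345 under P deficiency (limma, adjusted p = 0.048). That call was lost (adjusted p up to 0.14) in 8 of its alternatives, among them the fits without any one of the P deficiency libraries or control libraries 1 and 2. UL83 (chromosome 11, 9719730 to 9724106) fell by 1.44 ± 0.302 under P deficiency (limma, adjusted p = 0.035), a call lost (adjusted p up to 0.11) with the replicate number as a block and without any one of P deficiency libraries 1 and 2 or the 3 control libraries.

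Several loci had values on the same side of control under both deficiencies. The 2 comparisons share the control libraries, so their values are given side by side and are not independent. UL80 (chromosome 1, 23900781 to 23903202, minus strand, 2422 bases) stood at 538, 461 and 574 in control, 176, 162 and 172 under N deficiency, and 154, 141 and 187 under P deficiency. It fell by 1.61 ± 0.120 under N deficiency (limma, adjusted p = 0.00017) and by 1.71 ± 0.149 under P deficiency (limma, adjusted p = 0.0012), and every deficiency library was below every control library.

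UL51 (chromosome 4, 23004379 to 23005406, minus strand) stood at 674, 630.2 and 813 in control, 295, 319 and 338 under N deficiency, and 267, 282 and 306 under P deficiency. It fell by 1.14 ± 0.123 (limma, adjusted p = 0.00083) and by 1.30 ± 0.124 (limma, adjusted p = 0.0017). UL104 (chromosome 4, 21256190 to 21257839) fell by 0.92 ± 0.164 under N deficiency (limma, adjusted p = 0.0075) and by 0.96 ± 0.179 under P deficiency (limma, adjusted p = 0.023). The P deficiency call of UL104 was lost (adjusted p up to 0.087) without any one of P deficiency library 1 or the 3 control libraries.

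UL35 (chromosome 11, 22126085 to 22127691, plus strand, 1066 exonic bases) differed in the other direction. It stood at 326, 360.0 and 252 in control, 668, 899 and 865 under N deficiency, and 699, 649 and 569 under P deficiency. It rose by 1.38 ± 0.166 (limma, adjusted p = 0.0013) and by 1.04 ± 0.157 (limma, adjusted p = 0.011), the latter with an adjusted p of 0.054 without P deficiency library 1.

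In N deficiency against P deficiency, 207 loci had a mean of at least 100 in both groups and 6 (2.90%) passed the test, 3 in each direction. Over all 32119 genes tested 3.88% passed (1.43% higher, 2.45% lower). Among the 17098 genes at 100 or above in both groups 4.67% passed (1.83% higher, 2.84% lower). The 3 that were higher under N deficiency were UL66 (1.20), UL92 (chromosome 4, 17880753 to 17886858, 1.03 ± 0.205, limma, adjusted p = 0.022) and UL48 (0.75 ± 0.150, limma, adjusted p = 0.022). The 3 that were lower were UL69, UL8 and UL84 (-0.91 ± 0.206, limma, adjusted p = 0.040). Only UL69 and UL8 passed in every alternative. The call of UL92 was lost (adjusted p up to 0.089) without any one of N deficiency libraries 1 and 3 or P deficiency libraries 1 and 2. That of UL48 was lost (up to 0.085) without any one of N deficiency libraries 1 and 3 or P deficiency library 2, and that of UL84 (up to 0.12) without any one of control libraries 1 and 2, N deficiency library 3 or the 3 P deficiency libraries. The number of loci passing was 3 without N deficiency library 3, 2 without P deficiency library 2, and between 4 and 9 without each other library. DESeq2 passed 15 loci.

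Wider differences stood among loci below 100 in at least 1 of the groups compared, which include those the rule chose through a single group. These are described without a test. UL59 (chromosome 7, 28712480 to 28714713, minus strand, 1042 exonic bases) was highest under N deficiency. It stood at 60.7, 68.0 and 45.3 in control, at 587, 1349 and 1277 under N deficiency, and at 75.7, 81.7 and 41.8 under P deficiency. Every N deficiency library was above every other library, by a fitted log2 difference of 4.11 ± 0.310 from control and 3.96 ± 0.348 from P deficiency. The P deficiency libraries overlapped control.

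UL267 (chromosome 8, 4226158 to 4228319) was also higher under N deficiency, at 110.2, 156 and 263 against 29.2, 24.6 and 40.7 in control, and its P deficiency libraries were at 46.1, 52.1 and 55.1. UL282, just inside the threshold, had a log2 difference of 1.46 ± 0.332 under N deficiency.

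UL285 (chromosome 2, 12991303 to 12993929, minus strand, 2627 bases) was found almost only in control. It stood at 159.6, 114 and 62.5 in control, at 0 in each N deficiency library, and at 3.55, 6.13 and 2.85 under P deficiency. Summed over a group it had 332 reads in control, 0 under N and 12 under P deficiency. Against a floor of 3 reads over the group, its level was 114-fold higher in control than under N deficiency. The lower 95% counting limit of this bound was 92.1. The level was 26.1-fold higher in control than under P deficiency, with a 95% counting interval from 14.7 to 51.0. The control libraries themselves ranged from 62.5 to 159.6.

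UL276 (chromosome 4, 27169258 to 27177577, minus strand), the longest in exonic bases (7205), was lower under both deficiencies. It stood at 206, 177 and 147 in control, 52.8, 15.8 and 39.0 under N deficiency, and 28.4, 19.4 and 31.3 under P deficiency. Fitted log2 differences under N and P deficiency were -1.67 ± 0.209 and -1.57 ± 0.220 for UL239 (chromosome 10, 21599994 to 21602730), and -1.27 ± 0.331 and -2.30 ± 0.426 for UL281 (chromosome 3, 10749788 to 10751262). Lower values under N than under P deficiency were seen in UL120 (chromosome 9, 11852936 to 11853348, -2.80 ± 0.322 and -0.66 ± 0.247), UL235 (chromosome 11, 28696645 to 28697535, -2.33 ± 0.272 and 0.03 ± 0.151) and UL277 (chromosome 10, 16566587 to 16567915, -2.34 ± 0.460 and 0.35 ± 0.522). For UL235, the libraries were at 143, 125 and 142 in control, 31.5, 33.6 and 17.1 under N deficiency, and 125, 159 and 135 under P deficiency, so only the N deficiency libraries lay apart. UL161 (chromosome 2, 19339400 to 19341173) went the other way: its P deficiency libraries, at 81.6, 93.9 and 88.3, lay below control (205, 176 and 210.1) and N deficiency (248, 144 and 171).

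UL284 (chromosome 11, 7262785 to 7263306, plus strand, 412 exonic bases) was lowest in control and highest under P deficiency, at 14.6, 6.61 and 9.05, then 27.8, 31.7 and 51.4, then 105, 134 and 137, with no overlap between groups. UL153 (chromosome 2, 18735753 to 18736384, 632 bases) stood at 30.4, 21.7 and 27.2 in control and at 334, 299 and 289 under P deficiency. Its N deficiency libraries were at 26.9, 248 and 248, so library 1 lay with control and the other two near P deficiency. UL266 (chromosome 3, 18932127 to 18933216) had a similar split, with N deficiency library 1 at 18.5 against 103 and 79.9, and a log2 difference of 1.86 ± 0.339 under P deficiency.

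**Figure D3:**
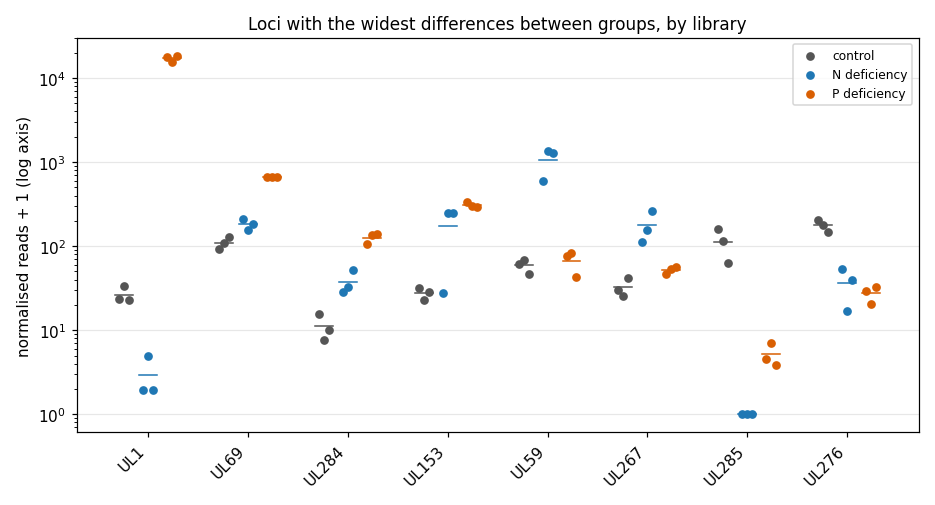
Normalised reads + 1 (log axis) of 8 loci with wide differences between groups, with a point per library coloured by group and a bar at each group mean. UL1, UL69, UL284 and UL153 have their highest values under P deficiency, UL59 and UL267 under N deficiency, and UL285 and UL276 in control.

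The rule did not read position relative to other gene models. However, unannotated loci are reported where no annotated gene covers them, so a low share of overlaps is partly built into the set. Whether the shares at short distances depend on this too was not tested. Of the 285 loci, 2 overlapped another model (0.702%), against 3.87% of unannotated loci with a Pfam domain, 14.4% of listed genes without a domain and 18.5% of listed genes with one at the same level. A model within 1000 bases was found for 123, on the opposite strand for 90 and on the same strand for 33. Between 1 and 20 bases from the nearest model lay 25 of the 285 (8.77%), against 6.63% of unannotated loci with a domain, 0.579% of listed genes without and 0.561% of listed genes with a domain. Among loci 1 to 1000 bases from their nearest model, that model was on the opposite strand for 73.6% of 121, against 69.3%, 60.2% and 61.7% in the same 3 classes. At the other end, 63 loci lay more than 5000 bases from any listed model, up to 63802 bases. Distances and overlaps were read only against gene models listed in either deposited table. An annotated gene absent from both would have been missed. The strand setting of the counting was not given in the sources used here, so at overlaps and at such short distances reads of a locus and of its neighbour may not be told apart, and this was not tested.

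Neighbours across this short gap differed with some loci. Os07g0678300 ends 10 bases from UL59 on the opposite strand and encodes a protein with a kinase domain and the NAF domain, the pair found in kinases that bind calcineurin B-like calcium sensors. It averaged 1763 ± 263 in control, against 4167 ± 324 under N and 2577 ± 463 under P deficiency. It rose by 1.25 ± 0.127 under N deficiency (limma, adjusted p = 0.00064), while UL59 was higher by 4.11.

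Os01g0286000, 7 bases from UL69 on the opposite strand, has the Snf7 domain of proteins that sort membrane cargo. It averaged 168 ± 26.5 in control, against 178 ± 32.7 under N and 443 ± 46.0 under P deficiency. It rose by 1.40 ± 0.153 under P deficiency (limma, adjusted p = 0.0031) and differed by 0.08 under N deficiency (adjusted p = 0.83).

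Os11g0236200, 111 bases from UL284 on the opposite strand, had means of 6.02 ± 1.70 in control, 19.7 ± 9.31 under N and 59.5 ± 13.4 under P deficiency, the same order as UL284. Os09g0474000, 12 bases from UL249 (chromosome 9, 18123475 to 18128746) on the opposite strand, encodes a bZIP transcription factor. UL249 stood at 199, 148 and 183 in control, 47.2, 21.8 and 23.8 under N deficiency, and 111, 69.4 and 63.6 under P deficiency. The bZIP gene fell by 0.60 ± 0.143 under N deficiency (limma, adjusted p = 0.027).

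Other loci differed beside neighbours that did not pass the test or had a difference in the other direction. UL18 (chromosome 6, 30115733 to 30117742, minus strand) stood at 1584, 1163 and 1272 in control, 760.4, 634 and 742 under N deficiency, and 642, 648 and 649 under P deficiency, so both deficiencies lay below every control library. It fell by 0.90 ± 0.134 (limma, adjusted p = 0.0034) and by 1.04 ± 0.126 (limma, adjusted p = 0.0047). The NUDIX hydrolase gene Os06g0712200, 13 bases away on the opposite strand, had differences of -0.15 ± 0.106 and -0.17 ± 0.121 (limma, adjusted p = 0.44 and 0.48). The SET domain gene Os04g0429100, 211 bases from UL104 on the opposite strand, had -0.18 ± 0.105 and -0.22 ± 0.105 (limma, adjusted p = 0.35 and 0.28). UL281 was lower under N deficiency while Os03g0304100, 235 bases away on the same strand, rose by 2.34 ± 0.245 (limma, adjusted p = 0.00071).

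Pairs were kept where the neighbour had a mean of at least 20 in at least 1 group. A locus or its neighbour could thus enter through the group where it was high, as UL59 did under N deficiency and UL284 under P deficiency. Other such loci, among them UL249, stayed in the values given below without UL59 or UL284. Across 68 opposite-strand pairs within 1000 bases, the log2 differences of locus and neighbour had a Pearson r of 0.44 under N deficiency (0.37 without UL59) and 0.67 under P deficiency (0.46 without UL284). For the 19 same-strand pairs r was -0.08 and -0.13. At 1000 to 5000 bases r was 0.38 and -0.06 over 36 opposite-strand pairs and 0.34 and 0.17 over 35 same-strand pairs. Within 1000 bases, unannotated loci with a domain had 0.13 and 0.20 over 35 opposite-strand pairs and 0.53 and 0.65 over 14 same-strand pairs. Opposite-strand pairs of listed genes had 0.07 and 0.17 without a domain and 0.13 and 0.12 with one. Their same-strand pairs had 0.27 and 0.25 without a domain (490 pairs) and 0.12 and 0.12 with one (998 pairs). Both members of a pair come from the same libraries, and pairs are not independent replicates, so these values are a description.

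**Figure D4:**
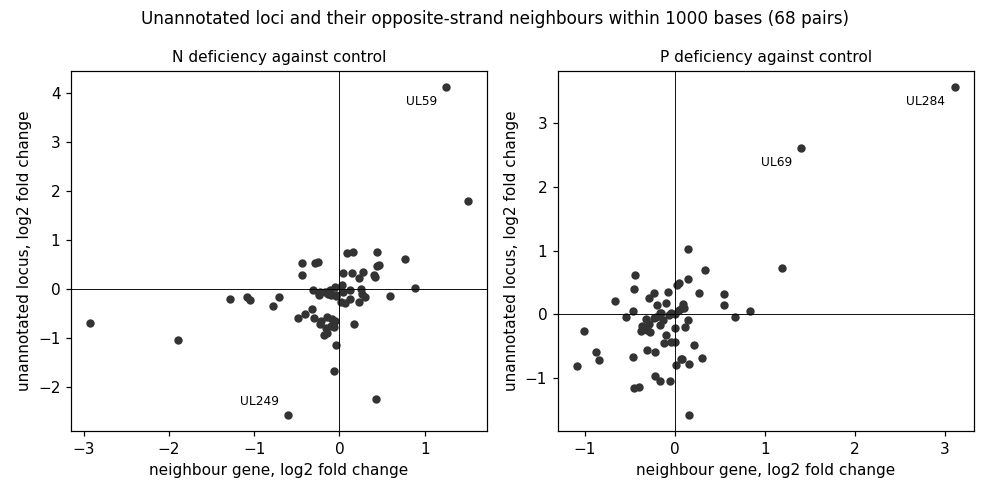
Log2 fold change of each unannotated locus (y axis) against that of its opposite-strand neighbour within 1000 bases (x axis), with a point for each of 68 pairs, for N deficiency (left) and P deficiency (right) against control. UL59 and its neighbour lie at 4.11 and 1.25 under N deficiency, and UL284 and UL69 lie at 3.56 and 2.61 under P deficiency beside neighbours at 3.11 and 1.40.

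Of the 285, 5 spanned more than 10000 bases, and the widest was UL105, which covers 81794 bases of chromosome 8 (16069983 to 16151776, minus strand) for 1356 exonic bases. It overlaps 4 other models, of which Os08g0352400 and Os08g0353700 are on the same strand. UL105 stood at 312, 448 and 243 in control, 144, 45.5 and 60.9 under N deficiency, and 202, 311 and 207 under P deficiency. Os08g0352400 fell by 1.35 ± 0.149 under N deficiency (limma, adjusted p = 0.00091) and Os08g0353700 by 1.67 ± 0.258 (limma, adjusted p = 0.0040). Under P deficiency they fell by 1.17 ± 0.148 (limma, adjusted p = 0.0055) and 1.07 ± 0.238 (limma, adjusted p = 0.042), whereas UL105 had -0.46 ± 0.257. Farther off on the same chromosome and strand, UL162 (chromosome 8, 15749432 to 15750942) and UL195 (chromosome 8, 15843623 to 15845238) had log2 differences of -1.78 ± 0.223 and -2.02 ± 0.426 under N deficiency. UL162 fell by 1.00 under P deficiency (limma, adjusted p = 0.021). That call was lost (adjusted p up to 0.095) without any one of P deficiency library 1 or control libraries 2 and 3. Close loci could have unlike values: on chromosome 4, UL160 (chromosome 4, 27160802 to 27162734) had -0.15 under N deficiency beside UL276 at -2.41.

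The spread between replicates was compared with that of the other classes. The median SD of log2 values within a group was 0.189, 0.229 and 0.191 in control, N deficiency and P deficiency, against 0.171, 0.197 and 0.233 in unannotated loci with a domain and 0.138, 0.157 and 0.166 in listed genes with a domain, which also have higher levels. Under P deficiency the unannotated loci with a domain thus had the wider spread. P deficiency library 3 was at least 1.5 log2 units below both other P deficiency libraries in 7 of the 285 (2.46%) and above both in 1 (UL22 (chromosome 6, 12359262 to 12360695)). Among 18665 genes at the same level it was below in 1.56% and above in 0.713%. UL33 (chromosome 1, 32944889 to 32945810) stood at 1316, 1641 and 61.7 in the 3 P deficiency libraries, UL191 (chromosome 9, 11710816 to 11712033) at 247, 250.1 and 17.1, and UL254 (chromosome 9, 18274927 to 18275992) at 218, 245 and 24.7. For UL33 the P deficiency libraries 1 and 2 lay above all control libraries (306, 378 and 253) and library 3 below them.

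**Figure D5:**
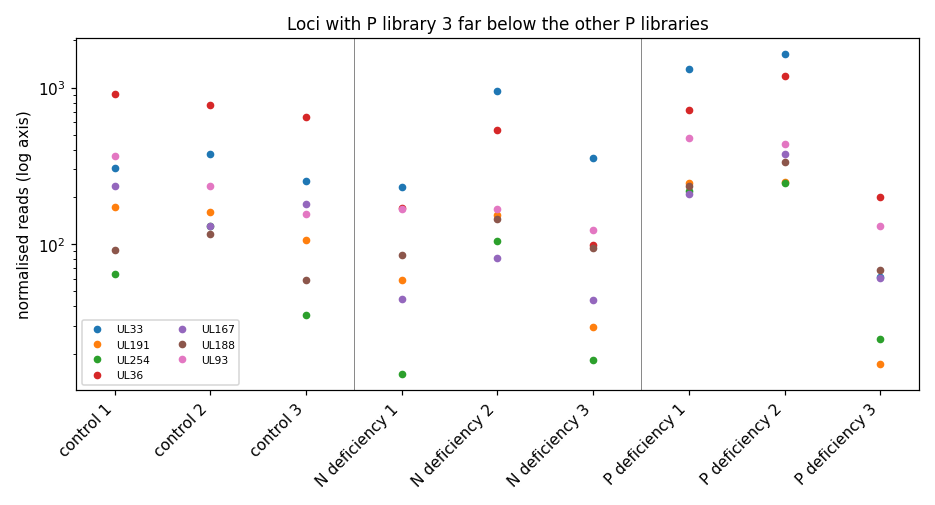
Normalised reads (log axis) of the 7 loci whose P deficiency library 3 lay at least 1.5 log2 units below both other P deficiency libraries, with a point per library (x axis) coloured by locus. UL33 falls from 1316 and 1641 in P deficiency libraries 1 and 2 to 61.7 in library 3.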

How the data were processed

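RNA was sequenced from rice roots in 9 libraries, 3 per group. Reads were aligned with HISAT2 2.0.5, per the submitters' processing notes, which name hg38 as a build. The build of the rice coordinates, the transcript assembler, the read counter and its strand setting were not given in the sources used here. The 2 deposited tables hold, for each library, a normalised signal made by the authors as read counts divided by 1 size factor, separately in each table. Dividing by the step of each library returned whole reads for 100% of values (tolerance 0.001, wider in proportion to the count for high counts). The deposited log2 fold change and p-value columns, which are the authors' own per the file headers, were not used.

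Each deficiency was tested against control on its own table in limma 3.58.1 under R 4.3.3 (eBayes with trend) on log2(value + 1), for genes with a mean of at least 1 in a group compared, with Benjamini-Hochberg adjustment over all genes and a threshold of 0.05. N against P deficiency was fitted over all 9 libraries on recovered reads with common median-of-ratios size factors. That scale was also used for the library values. Alternatives were edgeR 4.0.16 and DESeq2 1.42.0 on recovered reads, a pseudocount of 0.1, other filters on low values, each library left out, a replicate block, and all 9 libraries in 1 fit. edgeR with TMM called 4156, 1976 and 1278 genes for N, P and N against P deficiency. The steps were tested on simulated data. Intervals on read ratios cover counting error only.

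The loci and lists were chosen with earlier results of these data known. Loci named by rule were UL1, the 12 highest, the 6 largest differences in each direction per comparison among loci with groups that do not overlap, the 5 largest that passed in the same direction in both deficiencies, and the loci on either side of the threshold, each with gene models within 1000 bases. Other loci were named after their values were seen, among them UL21, UL33, UL84, UL36, UL48, UL18, UL105, UL254, UL191 and their neighbours. No sequence is shown, since no genome was used here.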

Additional observations from a re-analysis of the deposited data

Results flagged for a closer look

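UL1 differed in opposite directions in the 2 deficiencies: every P deficiency library was above, and every N deficiency library below, every control library. The fitted log2 difference of N against P deficiency was -12.66. The difference was not tested, since the locus lay below 100 normalised reads in control and under N deficiency and its level had chosen it.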

How the results depend on the processing

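No result changed direction under the alternatives run. With each library left out in turn, the loci passing numbered 17 to 32 (genes 2622 to 3710) for N deficiency, 10 to 34 (genes 696 to 3384) for P deficiency and 2 to 9 (genes 693 to 1579) for N against P deficiency, against 36 (4194), 28 (2047) and 6 (1247) with all libraries. The count of genes was highest for P deficiency without P deficiency library 3. DESeq2 called 3256 genes for P deficiency and 2278 genes and 15 loci for N against P deficiency, and the cause was not tested. In their deviations from the group means, same-numbered libraries of different groups had correlations of -0.10 to 0.04 for number 1 and 0.19 to 0.37 for numbers 2 and 3. Every library numbered 2 or 3, and none numbered 1, correlated best with its own number in each other group. The labels give no shared source for a number and not every pair was above 0.1, so the numbers were not taken to pair the libraries. With the replicate block 12 loci passed in N against P deficiency, 40 under N and 31 under P deficiency. Of the loci that passed, 15 of 36, 8 of 28 and 2 of 6 passed in every alternative. A level of 50 in place of 100 gave 471 loci and one of 200 gave 154. Of the 285, 2 overlapped a gene model of the deposited tables and 222 had one within 5000 bases, against 123 within 1000. Loci near 100 normalised reads rest on about that many reads per library, and loci such as UL285 on 0 to 12 reads in a group.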
